A study of Homo sapiens with 6 samples.

Results

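The immediate early genes of the EGR, NR4A and IER groups were followed after treatment with either of 2 iron chelators in DMS-53, an established line from a human small cell carcinoma of the lung. The 10 genes were EGR1, EGR2, EGR3, NR4A1, NR4A2, NR4A3, IER2, IER3, IER5 and CSRNP1, and their members were all probe sets that carry 1 of these symbols alone in the platform annotation. That gave 17 of the 54675 probe sets on the array, for 9 of the 10 genes. EGR2 had no probe set under its symbol in the annotation used here and was not analysed. Of the 17 probe sets, 15 had a mean at or above the 25th percentile of all probe sets and were tested.

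RNA was taken from cells kept for 24 h in RPMI medium with 25 µM Dp44mT, in the same medium with 250 µM DFO, or in control medium, with 2 Affymetrix U133 Plus 2.0 arrays for each. Dp44mT is a thiosemicarbazone that enters cells readily and binds iron and copper, and DFO (desferrioxamine) is a bacterial siderophore that enters cells poorly. Per the design text, these conditions had raised genes that respond to iron, with the transferrin receptor as an example, and the dose of DFO is higher because the compound crosses membranes poorly. The arrays of each group are called set 1 and set 2 after the titles, which do not say whether the sets are separate cultures, so the p-values cover a spread between arrays that may be technical.

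Immediate early genes are transcribed within minutes of a growth factor, depolarisation or stress signal, from promoters that are already occupied by factors such as SRF, its ETS partners and CREB, and their mRNAs are usually short-lived. EGR1 to EGR3 encode zinc finger factors that bind GC-rich sites, and the NR4A genes encode orphan nuclear receptors whose activity depends mainly on how much protein is made. The IER genes and CSRNP1 encode nuclear or membrane proteins with roles in stress survival and transcription.

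The set 2 arrays of both chelators were dim. The median deposited intensity was 83.6 in set 1 and 49.9 in set 2 for Dp44mT, 85.5 and 63.0 for DFO, and 88.9 and 88.8 for control. Values were therefore quantile normalized as log2(intensity + 16), and levels below are on that scale unless called deposited intensities. Replicate arrays correlated at 0.886 in Dp44mT, 0.907 in DFO and 0.970 in control across 41006 probe sets, which are not independent replicates. All 9 neuroendocrine markers with a probe set under their own symbol, such as CHGA, SYP and GRP, lay above the filter limit of 5.55. That limit is passed by 41006 of all 54675 probe sets. In Dp44mT against control, INSM1 fell 10.3-fold (limma adjusted p = 0.0154) and ENO2 rose 4.09-fold (limma adjusted p = 0.0217). The other 7 did not pass an adjusted p of 0.05. In DFO, ENO2 rose 3.35-fold (limma adjusted p = 0.0426) and 8 did not pass, among them INSM1, which was 4.61-fold lower (limma adjusted p = 0.0523). The summed normalized intensity of 10 fibroblast markers was 1435 (set 1) and 3396 (set 2) in Dp44mT, 1183 and 2736.5 in DFO, and 1446 and 842 in control. PDGFRB and FAP, 2 of those markers, were below the filter limit. COL1A2, DCN and POSTN stood between 8.92 and 9.85 in the set 2 chelator arrays and between 5.57 and 6.07 in control set 2. LUM was lower in the set 2 chelator arrays than in control set 2. For endothelial markers the sums were 746 and 2098 in Dp44mT, 725 and 1695 in DFO, and 786 and 389 in control, with CDH5 below the limit. In set 2, PECAM1 stood at 10.87 in Dp44mT, 10.50 in DFO and 8.04 in control, and KDR at 5.48, 6.80 and 5.72. For leukocyte markers they were 286 and 315 in Dp44mT, 234 and 331 in DFO, and 263 and 364 in control, with PTPRC below the limit. On ACTB the 3' control signal was 1.14 to 1.41 times the 5' one over the 6 arrays.

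**Figure D1:**
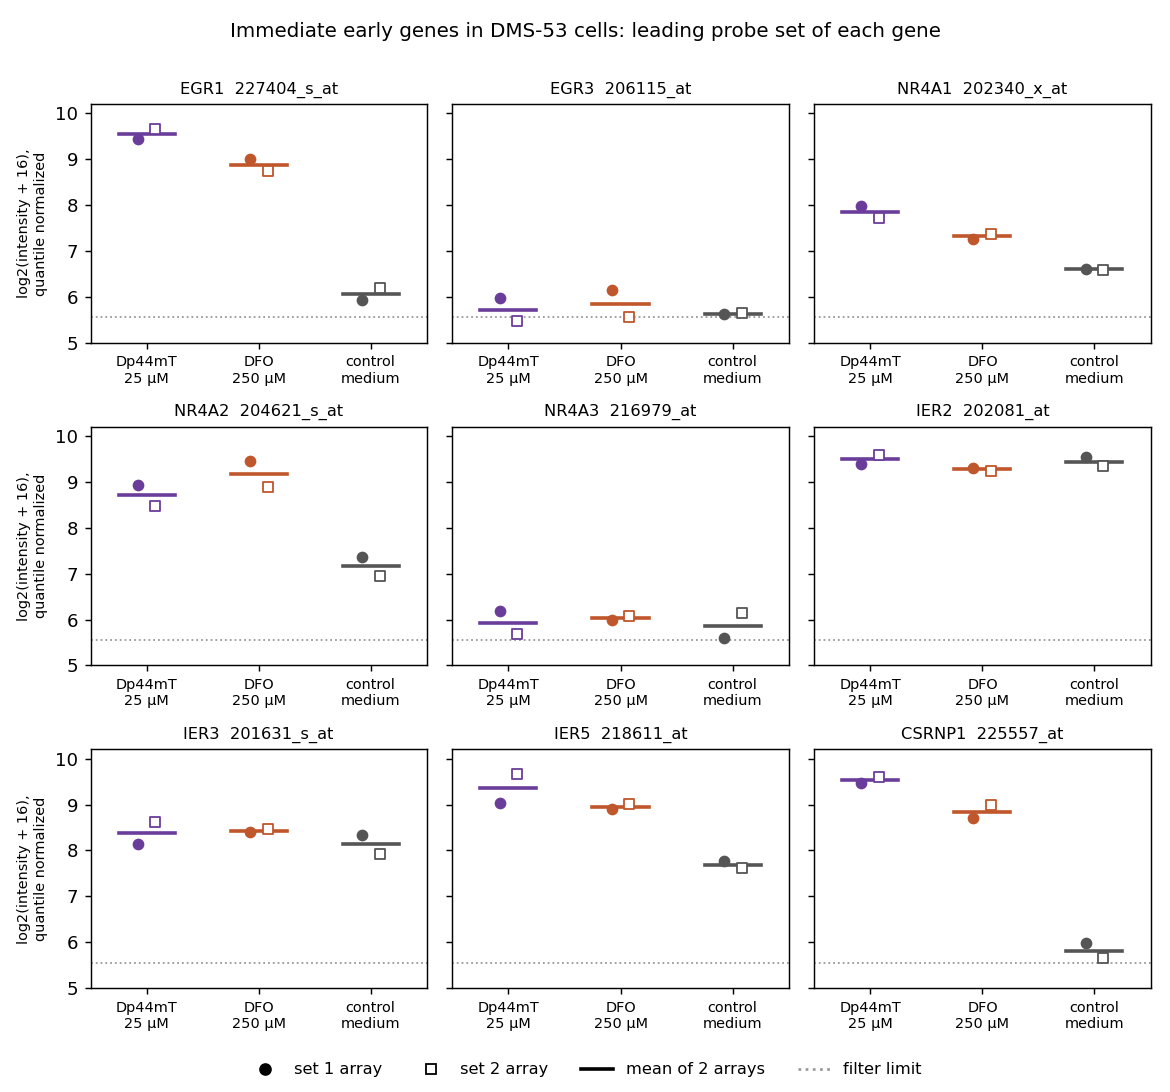
Normalized log2(intensity + 16) of the leading probe set (highest mean over the 6 arrays) of each of the 9 genes, by treatment. Circles are set 1 arrays, squares set 2 arrays, bars the mean of 2 arrays, and the dotted line the filter limit of 5.55. EGR1 and CSRNP1 lie near 6 in control and between 8.71 and 9.65 in both chelators, whereas IER2 stays between 9.24 and 9.59 in all groups.

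In Dp44mT against control, 4 of 15 probe sets rose and 0 fell in limma's moderated test, with 9 of the 15 at an unadjusted p under 0.05. A call means a Benjamini-Hochberg adjusted p under 0.05 over all 41006 probe sets, of which 1.63% were called, 1.07% higher and 0.563% lower, and 21.5% had an unadjusted p under 0.05. The calls were 2 of the 3 probe sets of EGR1, 1 of the 3 of NR4A1, and CSRNP1. The median log2 difference of the 15 was 1.25, against 0.01 over all probe sets tested. In DFO against control, 3 of 15 rose and 0 fell, with 9 at an unadjusted p under 0.05, where 0.588% of all probe sets were called, 0.568% higher and 0.0195% lower, and 11.1% had an unadjusted p under 0.05. The calls in DFO were the same 2 probe sets of EGR1 and CSRNP1, with a median over the 15 of 1.27 against −0.03 over all probe sets. These counts hold several probe sets of some genes. With only the brightest probe set of each of the 9 genes, 2 of 9 were called in each chelator, both higher. Their median log2 difference was 1.25 in Dp44mT and 0.72 in DFO. Both chelators are set against the same 2 control arrays, so these comparisons are not independent.

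Both Dp44mT arrays lay above both control arrays for 10 of the 15 probe sets, below for 0 and overlapped for 5, where 28.5% of all probe sets lay above and 32.8% below. For DFO the counts were 11 above, 1 below and 3 overlapping, where 17.0% of all probe sets lay above and 27.8% below. In bulk RNA, a change in the number of cells that express a gene cannot be told apart from a change in RNA per cell.

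**Figure D2:**
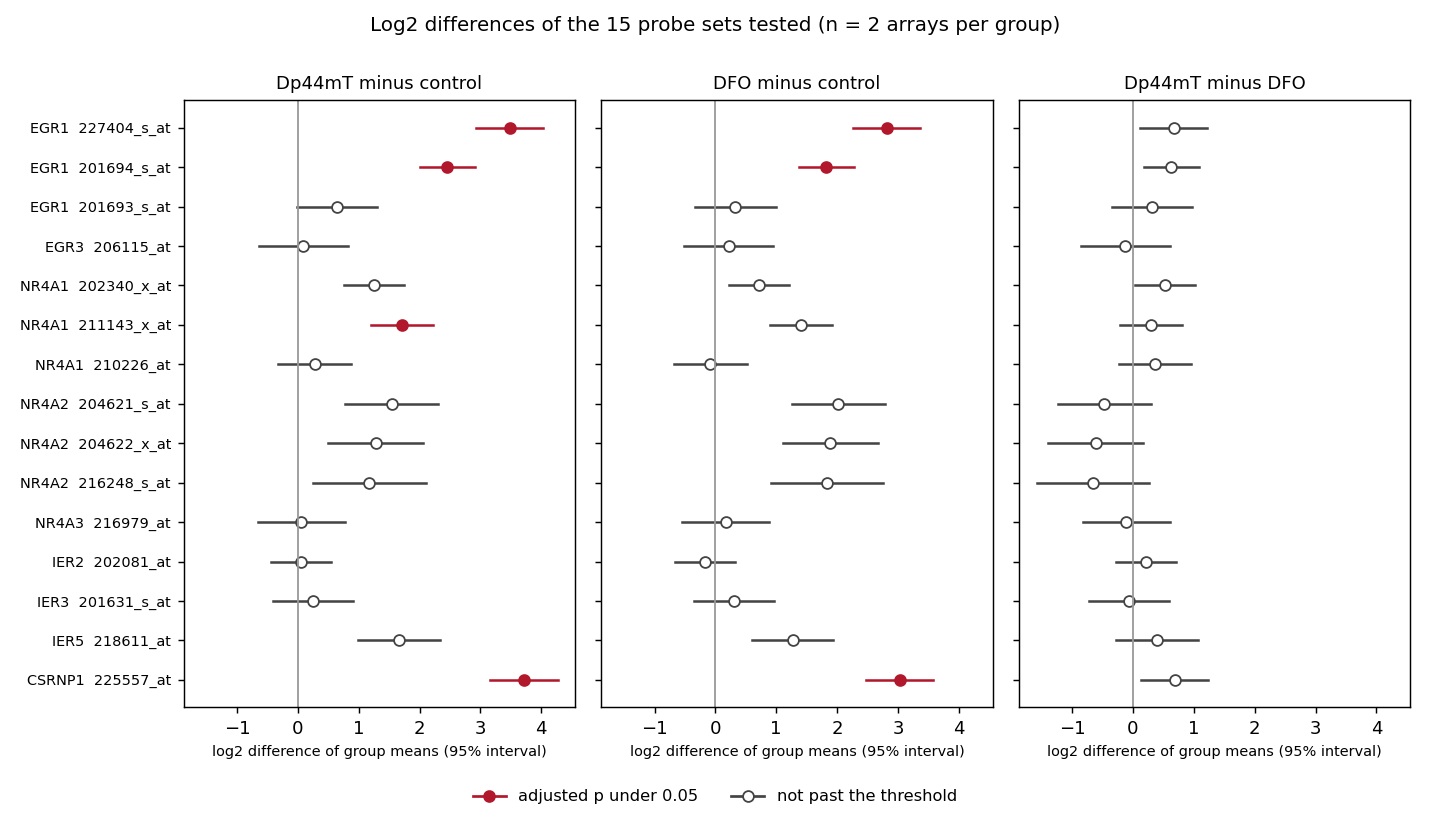
Log2 differences of group means with 95% intervals for the 15 probe sets tested, for Dp44mT minus control, DFO minus control and Dp44mT minus DFO (n = 2 arrays per group). Filled red points passed an adjusted p of 0.05: 4 in Dp44mT, 3 in DFO and 0 between the chelators.

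EGR1 encodes the founding EGR factor, a regulator of growth and stress genes. Its leading probe set, 227404_s_at, stood at 9.44 and 9.65 in Dp44mT, 9.003 and 8.75 in DFO, and 5.93 and 6.20 in control. The groups did not overlap, and both chelators lay far above control. It rose 11.2-fold in Dp44mT (log2 3.48, SE 0.22, limma adjusted p = 0.00974) and 7.03-fold in DFO (log2 2.81, SE 0.22, limma adjusted p = 0.0177). The deposited intensities were 746 and 430.3 in Dp44mT, 685 and 304 in DFO, and 51.6 and 67.7 in control, so the order of the treated and control arrays was there before normalization. Fold changes on the log2(intensity + 16) scale understate the change of dim probe sets.

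A further probe set of EGR1, 201694_s_at, stood at 8.89 and 8.92 in Dp44mT, 8.28 and 8.28 in DFO, and 6.40 and 6.50 in control. It rose 5.47-fold in Dp44mT (log2 2.45, SE 0.18, limma adjusted p = 0.0113) and 3.54-fold in DFO (log2 1.82, SE 0.18, limma adjusted p = 0.0294). The last EGR1 probe set, 201693_s_at, was at 7.36 and 6.77 in Dp44mT, 6.88 and 6.62 in DFO, and 6.43 and 6.41 in control. All its treated arrays lay above both control arrays. Its log2 difference was 0.65 in Dp44mT (95% interval −0.01 to 1.31, limma adjusted p = 0.238) and 0.33 in DFO (−0.33 to 0.99, limma adjusted p = 0.71), and neither passed. The probe sets of EGR1 thus differed by 2.83 in their log2 difference for Dp44mT and by 2.48 for DFO.

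EGR3, a relative of EGR1 that is often induced with it, had 1 probe set, which was dim. It stood at 5.98 and 5.47 in Dp44mT, 6.14 and 5.56 in DFO, and 5.62 and 5.65 in control, so the groups overlapped in both comparisons. Its log2 difference was 0.09 in Dp44mT (95% interval −0.64 to 0.82) and 0.22 in DFO (−0.52 to 0.95). Neither passed, with limma adjusted p of 0.86 in Dp44mT and 0.81 in DFO.

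CSRNP1 encodes a cysteine- and serine-rich nuclear protein first described as a gene induced by AXIN1. Its single probe set, 225557_at, stood at 9.47 and 9.59 in Dp44mT, 8.71 and 8.98 in DFO, and 5.98 and 5.66 in control. No group overlapped another. CSRNP1 rose 13.1-fold in Dp44mT (log2 3.71, SE 0.22, limma adjusted p = 0.00974) and 8.16-fold in DFO (log2 3.03, SE 0.22, limma adjusted p = 0.0153). By size of increase it ranked 17 of 41006 probe sets in Dp44mT and 53 in DFO, and the leading probe set of EGR1 ranked 29 and 71. The deposited intensities were 761 and 413 in Dp44mT, 556 and 358 in DFO, and 53.9 and 40.6 in control.

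Promoters are shown for EGR1 and CSRNP1, the genes with a probe set called in both chelators (2 of the 3 for EGR1), beside NR4A3 and IER2, of which no probe set was called. Each is the stretch of 250 bases before the gene start in RefSeq (GRCh38.p14), read 5′ to 3′ on the gene's strand. Capitals mark the CArG box, the site of SRF, and the letters TGACG on either strand (written CGTCA where the other strand holds them), the core of the CREB site. The windows are chr5:138465229-138465478 (plus strand) for EGR1, chr3:39153592-39153841 (minus strand) for the downstream start of CSRNP1, chr9:99821635-99821884 (plus strand) for NR4A3 and chr19:13150161-13150410 (plus strand) for IER2.
EGR1: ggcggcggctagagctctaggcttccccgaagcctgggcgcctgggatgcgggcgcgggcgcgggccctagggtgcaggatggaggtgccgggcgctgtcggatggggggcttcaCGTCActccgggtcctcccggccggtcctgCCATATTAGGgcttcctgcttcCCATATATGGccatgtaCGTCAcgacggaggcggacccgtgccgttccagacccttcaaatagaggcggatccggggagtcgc
CSRNP1: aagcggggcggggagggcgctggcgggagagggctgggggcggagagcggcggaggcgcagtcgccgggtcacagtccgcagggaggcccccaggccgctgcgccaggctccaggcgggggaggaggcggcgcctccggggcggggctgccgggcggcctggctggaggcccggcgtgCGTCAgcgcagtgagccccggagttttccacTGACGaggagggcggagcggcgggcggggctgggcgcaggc
NR4A3: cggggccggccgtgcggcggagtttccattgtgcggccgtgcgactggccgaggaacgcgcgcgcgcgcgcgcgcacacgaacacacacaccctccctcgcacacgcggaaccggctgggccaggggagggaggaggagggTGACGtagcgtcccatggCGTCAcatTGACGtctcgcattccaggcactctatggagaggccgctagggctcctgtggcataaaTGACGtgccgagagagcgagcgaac
IER2: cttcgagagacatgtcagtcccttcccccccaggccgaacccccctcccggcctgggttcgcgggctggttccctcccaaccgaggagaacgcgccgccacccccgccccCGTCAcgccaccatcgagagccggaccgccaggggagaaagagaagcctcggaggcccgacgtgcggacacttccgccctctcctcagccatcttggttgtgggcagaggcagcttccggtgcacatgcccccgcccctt

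The EGR1 window held 2 CArG boxes, whose first bases lie 105 and 83 bases before the start, and 2 copies of TGACG. Of all 35116 promoter windows of the same length, 1.16% held a CArG box and 0.0313% held 2 or more. TGACG was held by 21.2% of them, and 2 or more copies of it by 4.76%. The CSRNP1 window had 0 CArG boxes and 2 copies of TGACG. NR4A3 had 0 CArG boxes and 4 copies of TGACG, and IER2 had 0 and 1. The letters GCGNGGGCG, the site of EGR factors, were found once in EGR1 and in no other of these windows, against 8.41% of all windows, and AAAGGTCA, the site of NR4A receptors, in none of these windows, against 1.05%. The full letters TGACGTCA, present in 1.65% of all windows, were in none of these 4. The letters ACGTG are a form of the core of the site of hypoxia-inducible factors, and other forms were not searched. They were found once each in EGR1, NR4A3 and IER2 and not in CSRNP1, against 18.5% of all windows with at least 1 copy. The window of IER5, the 2 windows present for NR4A1 and the upstream window of CSRNP1 held none of these letters. The NR4A1 windows are chr12:52022582-52022831 and chr12:52037465-52037714, in a gene that runs from 52022832 to 52059503. Any start without a window was not searched. Motifs were searched on both strands, and 1 copy of ACGTG in EGR1 and 1 in NR4A3 share bases with a copy of TGACG. The windows searched held none for EGR3, NR4A2 and IER3. The search left out member windows on chromosome 8, where EGR3 lies, and windows of another length in the source.

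NR4A1 (Nur77) encodes a nuclear receptor linked to apoptosis and metabolic control. Its leading probe set, 202340_x_at, stood at 7.97 and 7.72 in Dp44mT, 7.26 and 7.37 in DFO, and 6.61 and 6.58 in control. All treated arrays lay above both control arrays, and the Dp44mT arrays above the DFO arrays. The log2 difference was 1.25 in Dp44mT (SE 0.20, limma adjusted p = 0.054) and 0.72 in DFO (SE 0.20, limma adjusted p = 0.28), and neither passed. The probe set 211143_x_at was at 7.81 and 7.64 in Dp44mT, 7.55 and 7.29 in DFO, and 6.05 and 5.97 in control. It rose 3.28-fold in Dp44mT (log2 1.71, SE 0.20, limma adjusted p = 0.0316) and had a log2 value of 1.41 in DFO (SE 0.20, limma adjusted p = 0.0719).

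The remaining NR4A1 probe set, 210226_at, was at 6.90 and 6.41 in Dp44mT, 6.25 and 6.34 in DFO, and 6.28 and 6.47 in control. Its groups overlapped, with log2 differences of 0.28 in Dp44mT (95% interval −0.32 to 0.88) and −0.08 in DFO (−0.68 to 0.51). By Affymetrix naming, the suffix _x_at marks probe sets in which some probes can also bind other transcripts, and the 2 NR4A1 probe sets with the larger differences both carry it.

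NR4A2 (Nurr1) encodes the family member best known in dopamine neurons. Its leading probe set, 204621_s_at, stood at 8.93 and 8.48 in Dp44mT, 9.45 and 8.90 in DFO, and 7.37 and 6.95 in control. Both chelators lay above control in every array, with DFO ahead in each set. The log2 difference was 1.55 in Dp44mT (95% interval 0.78 to 2.31, limma adjusted p = 0.0782) and 2.02 in DFO (1.25 to 2.78, limma adjusted p = 0.079). The 3 probe sets of NR4A2 ran close together, from 1.18 to 1.55 in Dp44mT and from 1.84 to 2.02 in DFO, and none of them passed. The control arrays differed by 0.42 on the leading probe set, and the intervals of all 3 NR4A2 probe sets were wider than those of the EGR1 probe sets.

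**Figure D3:**
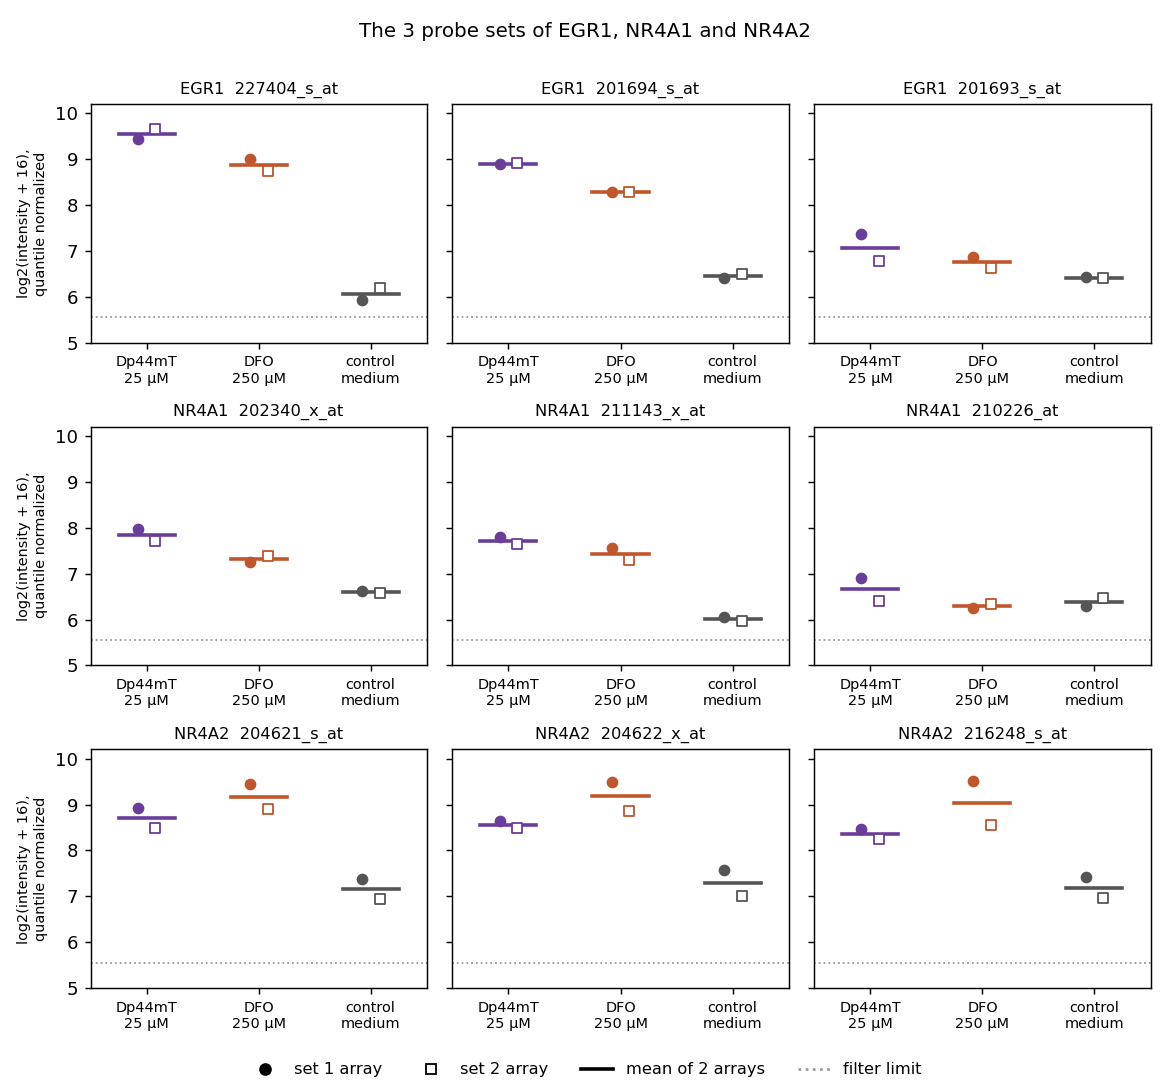
Normalized log2(intensity + 16) of the 3 probe sets each of EGR1, NR4A1 and NR4A2, with circles for set 1 arrays, squares for set 2 arrays and bars for the mean of 2 arrays. In the right-hand probe sets of EGR1 and NR4A1, the chelators differ less from control than in the other 2 of each gene. The 3 of NR4A2 show the same order, DFO above Dp44mT above control.

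NR4A3 (NOR1), the last of the family, was dim on all 3 of its probe sets. The leading one, 216979_at, stood at 6.18 and 5.68 in Dp44mT, 5.999 and 6.08 in DFO, and 5.60 and 6.14 in control, and the groups overlapped. Its log2 difference was 0.06 in Dp44mT (95% interval −0.65 to 0.77) and 0.17 in DFO (−0.54 to 0.88). The other 2 were below the filter and not tested. On 209959_at the deposited intensities were 4.50 and 2.58 in Dp44mT, 9.62 and 4.90 in DFO, and 0.271 and 0.00956 in control, all under the added 16. On 207978_s_at they ran from 26.2 to 36.8 over all arrays.

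IER2 encodes a nuclear protein induced by serum. It stood at 9.39 and 9.59 in Dp44mT, 9.30 and 9.24 in DFO, and 9.54 and 9.35 in control. The Dp44mT and control arrays overlapped, and both DFO arrays lay just below control. Its log2 difference was 0.05 in Dp44mT (95% interval −0.44 to 0.54, limma adjusted p = 0.89) and −0.17 in DFO (−0.66 to 0.32, limma adjusted p = 0.779). The sign of the IER2 value in Dp44mT depended on the scaling: it was −0.65 on the deposited scale and −0.28 with array medians subtracted, where the median over all probe sets was −0.46 and −0.09.

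IER3 (IEX-1) encodes a stress-induced protein that acts in cell survival. It stood at 8.14 and 8.61 in Dp44mT, 8.41 and 8.46 in DFO, and 8.34 and 7.92 in control. Both DFO arrays were above both control arrays by a small margin, and the Dp44mT arrays overlapped control. The log2 difference was 0.25 in Dp44mT (95% interval −0.41 to 0.90), where it was −0.40 on the deposited scale and −0.03 with array medians subtracted, and 0.30 in DFO (−0.35 to 0.96).

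IER5 encodes a protein that helps activate the heat shock factor HSF1 by bringing it to the phosphatase PP2A. It stood at 9.03 and 9.67 in Dp44mT, 8.90 and 9.01 in DFO, and 7.76 and 7.61 in control. No treated array overlapped control, and set 2 was the higher of the Dp44mT pair. The log2 difference was 1.66 in Dp44mT (95% interval 0.99 to 2.33, limma adjusted p = 0.0562) and 1.27 in DFO (0.60 to 1.94, limma adjusted p = 0.177), and neither passed. When 1 probe set per gene was tested, over 16868 genes, IER5 and the leading probe set of NR4A1 passed in Dp44mT, with limma adjusted p of 0.043 and 0.0367. In that setting 3.37% of all genes were called in Dp44mT, against 1.63% of all probe sets in the main fit.

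Differences within each set are given here for genes picked for their large differences on these same arrays. All their treated arrays lay above both control arrays, so a positive sign in each set was already fixed. For Dp44mT, EGR1 (227404_s_at) was higher by 3.51 in set 1 and 3.46 in set 2, and CSRNP1 by 3.49 and 3.94. For DFO, EGR1 was higher by 3.07 and 2.56, and CSRNP1 by 2.73 and 3.32. NR4A2 (204621_s_at) was higher by 1.56 and 1.53 in Dp44mT and by 2.09 and 1.95 in DFO. Among the 15 probe sets, the sets had opposite signs for 5 in Dp44mT and for 2 in DFO, all with group differences of 0.28 or less on the log2 scale. The median difference of the fibroblast markers was −0.09 in set 1 and 1.64 in set 2 for Dp44mT, and −0.28 and 1.62 for DFO. The set 1 differences of the other called EGR1 probe set, 201694_s_at, were 2.49 in Dp44mT and 1.87 in DFO. The part of the fibroblast markers in these results was not tested. Without both dim set 2 chelator arrays, 8 of 15 probe sets were called in Dp44mT and 6 in DFO, all higher, where 8.55% and 0.910% of all probe sets were called. That fit takes its spread from the control pair and assumes that the lone chelator arrays vary like it. The log2 difference of EGR1 (227404_s_at) was then 3.56 in Dp44mT and 3.11 in DFO, and that of CSRNP1 was 3.85 and 3.07.

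**Figure D4:**
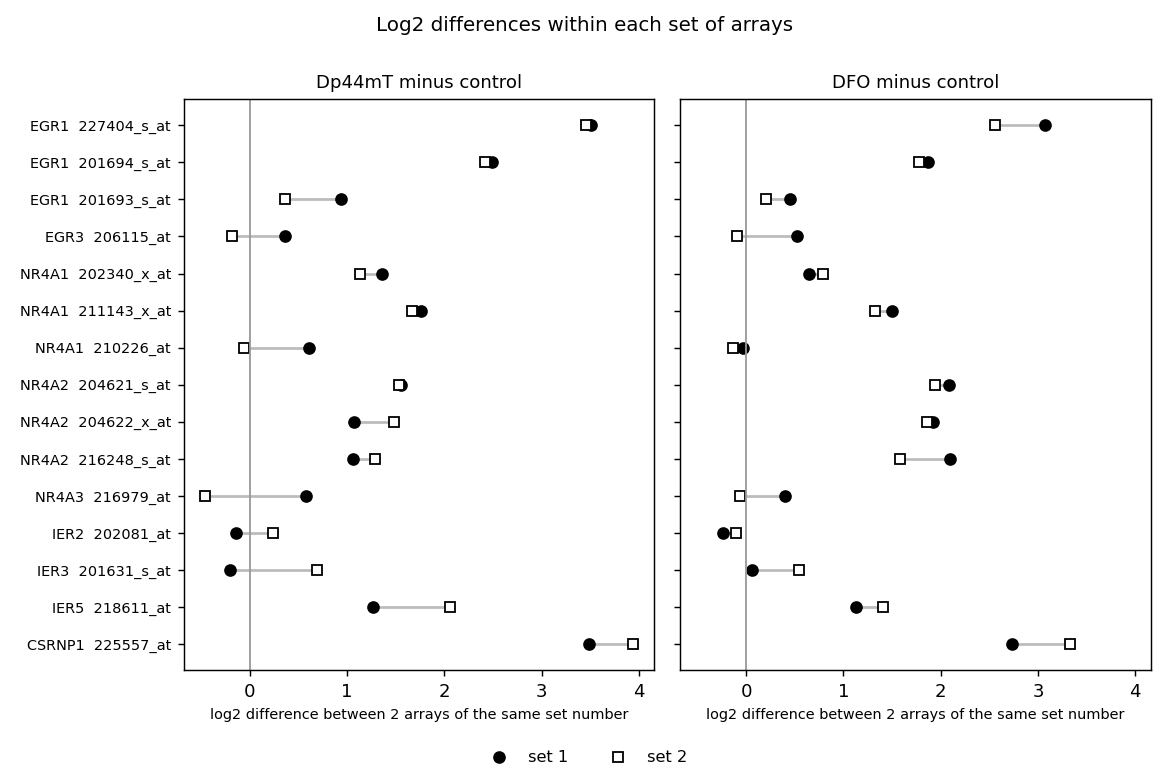
Log2 difference between the chelator array and the control array with the same set number, for the 15 probe sets tested, in Dp44mT and in DFO. Circles are set 1 and squares set 2. All probe sets of EGR1 and NR4A2, 202340_x_at and 211143_x_at of NR4A1, IER5 and CSRNP1 lie to the right of 0 in both sets and both chelators. EGR3 and NR4A3 straddle 0 in both chelators, and 210226_at of NR4A1, IER2 and IER3 in Dp44mT.

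Leaving out 1 array leaves a group with 1 array. The DFO calls were then mostly or wholly lost over all 41006 probe sets, not only among these 15. The Dp44mT calls were lost over all probe sets when a control or Dp44mT array was left out, but not when a DFO array was. Over these fits the log2 difference in Dp44mT lay between 3.34 and 3.59 for EGR1 (227404_s_at) and between 3.50 and 3.85 for CSRNP1, and in DFO between 2.62 and 2.99 for EGR1 and between 2.82 and 3.16 for CSRNP1. On the deposited scale, 1 of 15 passed in Dp44mT (CSRNP1) and 0 in DFO.

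The comparison of Dp44mT with DFO asks whether the chelators differ at the doses used, which are not matched. None of the 15 probe sets passed in limma (0 called, 4 at an unadjusted p under 0.05), where 0% of all 41006 probe sets were called and 3.34% had an unadjusted p under 0.05. The smallest adjusted p among the 15 was 0.969. CSRNP1 was higher in Dp44mT by 0.69 on the log2 scale (95% interval 0.13 to 1.24), EGR1 by 0.67 (227404_s_at, 0.12 to 1.21) and 0.63 (201694_s_at, 0.18 to 1.08), and NR4A1 by 0.53 (202340_x_at, 0.03 to 1.02). These 4 intervals, which are not adjusted for the number of probe sets, exclude 0, but their size depended on the scaling. CSRNP1 was at 0.32 on the deposited scale and 0.47 with array medians subtracted, and EGR1 (227404_s_at) at 0.30 and 0.44, and on either scale 0 of 15 probe sets had an unadjusted p under 0.05. NR4A2 ran the other way on all 3 probe sets, with values of −0.47, −0.61 and −0.66, and intervals that hold 0. Both Dp44mT arrays lay above both DFO arrays for 8 of 15 probe sets and below for 2, where 13.0% of all probe sets lay above and 12.4% below. IER2, IER3 and IER5 had differences of 0.22, −0.06 and 0.39, with intervals that also hold 0.

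Genes that work with these factors were measured on the same arrays. Among their relatives and partners, 8 of 10 genes were tested and 0 were called in either chelator by limma (3 in Dp44mT and 1 in DFO at an unadjusted p under 0.05). NAB2, a corepressor that EGR factors induce, had the highest value, 1.11 in Dp44mT (adjusted p = 0.0677) and 0.78 in DFO (adjusted p = 0.261). RXRA, a dimer partner of NR4A1 and NR4A2, stood at 0.78 in Dp44mT and 0.29 in DFO, and CSRNP2, a relative of CSRNP1, at 0.54 and 0.37.

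Of 12 serum response and CREB regulators, 11 were tested. CREM, which encodes CREB-family activators and the repressor ICER, rose 3.78-fold in Dp44mT (log2 1.92, limma adjusted p = 0.029), and 10 did not pass. In DFO 0 of 11 passed in limma (3 at an unadjusted p under 0.05), with CREM at 1.67 (adjusted p = 0.0555). MRTFA and MRTFB, the actin-regulated partners of SRF, stood at 0.81 and −1.79 in Dp44mT and at 0.55 and −0.38 in DFO. CRTC2, a coactivator of CREB, stood at 0.76 in Dp44mT and 0.54 in DFO. The median of the list was −0.03 in Dp44mT and 0.05 in DFO.

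In the ERK cascade and its inhibitors, 17 of 21 genes were tested. MAP2K1, the kinase MEK1 that phosphorylates ERK, rose 2.52-fold in Dp44mT (log2 1.33, limma adjusted p = 0.0391), and SPRY4, a feedback inhibitor of receptor signalling to ERK, rose 2.97-fold (log2 1.57, limma adjusted p = 0.0342). The other 15 did not pass, among them the inhibitors SPRED2 at 1.14 (adjusted p = 0.0563) and SPRY1 at 1.02 (adjusted p = 0.0947). In DFO 0 of 17 passed in limma (4 at an unadjusted p under 0.05), with MAP2K1 at 1.26, SPRY4 at 1.20, SPRED2 at 1.19 and SPRY1 at 0.90. RPS6KA3, a kinase downstream of ERK, stood at −0.96 in Dp44mT (adjusted p = 0.105) and −0.45 in DFO. Of the same inhibitor families, and named after their values were seen, SPRY2 stood at −0.40 in Dp44mT and −0.32 in DFO, and SPRED1 at −0.82 and −0.05. SPRED3, also named after its values were seen, stood at −1.75 and −1.02, each with an SE of 1.37. Its difference in Dp44mT was 0.60 in set 1 and −4.11 in set 2, where the deposited Dp44mT intensity was 0.112. The list medians were 0.03 in Dp44mT and 0.09 in DFO.

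Of 14 EGR targets, 11 were tested and 0 called in either chelator by limma (6 in Dp44mT and 3 in DFO at an unadjusted p under 0.05), with medians of 0.19 in Dp44mT and 0.21 in DFO. The smallest p in Dp44mT was that of NAB2, given above at 1.11, and the smallest in DFO that of FN1, which encodes fibronectin and stood at 1.22 in Dp44mT and 1.69 in DFO. PDGFA, a growth factor gene named after its value was seen, stood at 0.94 and 0.63. TGFB1, which encodes a growth-restraining cytokine, stood at −0.72 in Dp44mT and −0.22 in DFO, and THBS1, which encodes the matrix protein thrombospondin, at −1.26 and 0.09. ALOX5, a lipoxygenase gene, stood at −0.86 and −0.67. Of 11 NR4A targets, 6 were tested and 0 called by limma (1 in Dp44mT and 2 in DFO at an unadjusted p under 0.05), with medians of −0.17 in both. CRH, which encodes a stress hormone, stood at 1.29 in Dp44mT and 0.91 in DFO. BIRC5, which encodes the apoptosis inhibitor survivin, stood at −0.58 in Dp44mT and −0.74 in DFO, and SLC18A2, a monoamine transporter gene, at −0.92 and −0.22. Among 5 partners of IER5 and IER3, 0 were called by limma (2 in each chelator at an unadjusted p under 0.05). MCL1, the survival protein to which IER3 binds, stood at 0.81 in Dp44mT and 0.83 in DFO, and PPP2R2A, a regulatory subunit of PP2A, at 0.99 and 0.64. PPP2CA, its catalytic subunit, stood at 0.22 in Dp44mT and 0.26 in DFO.

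Probe sets of other genes with the nearest profile were found by the root mean square difference of log2 values over the 6 arrays, taken relative to the control mean, among 32227 candidates. For EGR1 (227404_s_at) they were DNAJB9 (0.175) and STC2 (0.196), and for CSRNP1 they were DDIT3 (0.101) and DUSP5 (0.141). For IER5 they were SEL1L (0.111) and WDR47 (0.123). For NR4A2 they were BDKRB2 (0.0985) and NELL1 (0.115), and for NR4A1 ZNF574 (0.043) and SNHG17 (0.0577). For EGR3, NR4A3, IER2 and IER3, whose arrays differed little, the nearest were STXBP4 (0.0277), MACROH2A1 (0.052), SLC17A9 (0.0337) and ERBB3 (0.0507). With 2 arrays a group, these are descriptions of likeness on these arrays.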

How the data were processed

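The deposited values are intensities per probe set, not log-transformed, with 2 arrays for each of 3 groups. The submitters' processing notes credit Affymetrix Expression Console 1.1, and no summarization or normalization is given in the sources used here. To the deposited intensities 16 was added before log2, and the log2 values were quantile normalized with limma 3.58.1 (R 4.3.3), since array medians differed. The platform annotation gives 41097 probe sets 1 symbol, 1801 several and 11777 none. Probe sets with a mean below the 25th percentile (5.55) were left out, leaving 41006 of 54675.

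All 3 groups entered 1 limma model (3 residual and 2.52 prior degrees of freedom), two-sided, with Benjamini-Hochberg adjustment over all probe sets tested. Having 2 arrays a group limits precision, with a median 95% half-width of 0.68 on the log2 scale. The fit was also run on simulated data with independent noise for each value. Those data lack the shared deviations of the same-numbered chelator arrays, so the run cannot show how the fit behaves with them. Each member is given with all its probe sets. From the lists of partners, regulators and targets, the genes called and up to 3 others with the smallest p in a comparison are named, plus those marked as named after their values were seen, each by its brightest probe set. The members, lists and scale were chosen with earlier results of these data known. Alternatives changed the pseudocount, scaling, filter, choice of probe set, prior variance, replicate block and arrays used.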

Additional observations from a re-analysis of the deposited data

How the results depend on the processing

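Over all alternatives, the 7 calls of the report kept their direction and missed the threshold in 41 of 95 repeats. With no scaling, which put the median over all probe sets at −0.46 in Dp44mT and −0.30 in DFO, 1 of 15 probe sets passed in Dp44mT and 0 in DFO. Of all calls, 65.5% in Dp44mT and 96.7% in DFO were higher, against 38.5% and 77.4% on the deposited scale and 50.4% in Dp44mT with array medians subtracted. Without both set 2 chelator arrays, 8 passed in Dp44mT and 6 in DFO. Leaving out 1 array gave 0 to 4 in Dp44mT and 0 to 1 in DFO. Calls over all probe sets numbered 670 in Dp44mT and 241 in DFO, against 1866 and 571 with an intensity trend, 342 and 156 with a pseudocount of 1, 363 and 144 with array medians subtracted, 39 and 31 on the deposited scale, 3504 and 373 without both set 2 chelator arrays, and 0 to 607 and 0 to 52 without 1 array. Dp44mT against DFO gave 0 limma calls under every alternative, with 0 to 6 of the immediate early probe sets at an unadjusted p under 0.05.

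With the set number as a replicate block, 6 of 15 passed in Dp44mT and 4 in DFO, and 1243 and 208 of all probe sets. NR4A2 (204621_s_at) then passed in both chelators (limma adjusted p = 0.0371 in Dp44mT and 0.04 in DFO), as did IER5 in Dp44mT (0.0495). The deviations of same-numbered arrays from their group means correlated at −0.33 for Dp44mT and control and −0.23 for DFO and control. The numbers were therefore not taken to pair arrays in the main fit. The same-numbered Dp44mT and DFO arrays did deviate together, at 0.83, and the main fit does not use this when it compares them. With the block, Dp44mT against DFO gave 0 limma calls. An unadjusted p under 0.05 was seen for 6 of 15 probe sets and 2195 of all 41006.

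Reversals were seen only for log2 differences that were not called, and their cause was not tested. On the deposited scale they were −0.16 for EGR3, −0.0838 for NR4A1 (210226_at), −0.21 for NR4A3, −0.65 for IER2 and −0.40 for IER3 in Dp44mT, −0.0203 for NR4A3 in DFO, and −0.14 for IER2 in Dp44mT against DFO. With array medians subtracted they were −0.28 for IER2 and −0.029 for IER3 in Dp44mT. With arrays left out, EGR3 ran from −0.17 to 0.36 in Dp44mT, from −0.0749 to 0.53 in DFO and from −0.42 to 0.16 between the chelators. NR4A3 ran from −0.21 to 0.33 in Dp44mT, from −0.10 to 0.44 in DFO and from −0.36 to 0.19 between them. IER2 ran from −0.0496 to 0.15 in Dp44mT, NR4A1 (210226_at) from −0.17 to 0.0096 in DFO, and IER3 from −0.30 to 0.18 between the chelators.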
